A study of Bos taurus with 20 samples.

Results

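The phagocyte NADPH oxidase was followed through 5 of its subunit genes, CYBB, CYBA, NCF1, NCF4 and RAC2, out of 9155 gene symbols on a bovine expression array. Members were all probe sets, the groups of short probes that report 1 transcript, that the platform annotation gives to 1 of these symbols and to no other. CYBB had 2 such probe sets and the other 4 genes had 1 each, which gave 6 of the 24128 probe sets on the array. Mammary tissue was taken from all 4 glands of 5 lactating Holstein Friesian cows in an Escherichia coli mastitis experiment, with 1 array per gland. CFPD glands were challenged with 100 CFU of E. coli and then infused with 300 mg cefapirin, an antibiotic, together with 20 mg prednisolone, a glucocorticoid. CF glands received the same challenge and cefapirin alone. CNT glands were challenged and left untreated, and NC glands were neither challenged nor treated. The animals cow8452, cow8507 and cow8605 were sampled 48 h after challenge and cow8609 and cow8620 at 24 h. Infusions were scheduled at 4, 12, 24 and 36 h, so the number received by a gland depended on when the cow was sampled. All 4 glands shared 1 animal, so the NC gland is an unchallenged gland of a cow with mastitis and not a gland of a healthy cow. CNT was the left front and NC the right front gland in every cow, and the position of the gland and this pair of groups cannot be told apart. By the study's methods the CF and CFPD glands were the rear glands. Front or rear position therefore cannot be told apart from treatment in comparisons of treated glands with CNT or NC.

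As described mostly in human and mouse phagocytes, the oxidase carries electrons from NADPH inside the cell to oxygen on the other side of the membrane, which yields superoxide for the killing of ingested bacteria. CYBB (gp91phox) holds the electron path and CYBA (p22phox) stabilises it, and together they form the membrane-bound cytochrome b558. NCF1 (p47phox) and NCF4 (p40phox) are cytosolic subunits that move to the membrane when the cell is stimulated, and RAC2 is the small GTPase of blood cells that takes part in switching the complex on. Neutrophils, the cells that enter the infected udder in the largest numbers, carry all of these proteins, and monocytes and macrophages do as well.

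Values are log2 signals after robust multi-array averaging (RMA), so a difference of 1 is a doubling. They are not comparable between probe sets, and only differences between glands are compared below. The array medians lay between 7.12 and 7.31. The mean log2 level of 8 mammary epithelium markers was between 11.94 and 12.81 in every gland. The milk protein genes CSN2, CSN3 and LALBA had the highest values of the 8, and KRT8 exceeded the array median on only 1 array. In whole tissue, fewer cells of a type and less RNA per cell cannot be told apart. The CF and CFPD labels of cow8609 and cow8452 are in doubt, because the study's own comparisons followed the arrays more closely with these 2 labels exchanged in both cows. Results specific to CF or CFPD are therefore also given with the labels exchanged, and the mean of the CF and CFPD glands of each cow, which does not depend on the exchange, is given beside them. A probe set was called where the limma test of a time point gave an adjusted p under 0.05 and a log2 difference of at least 1 in size. All 6 member probe sets passed the filter on low values at both time points. NCF1 passed it only through the CNT glands. It was above the array median on 2 CNT arrays and on no other array at 24 h, and on 3 CNT arrays and 1 NC array at 48 h. Its place in the test of each time point and of both together thus depended on the group in which it was high. Its adjusted p and its calls below therefore carry no weight of their own, and its levels are given beside them. NCF1 stays in the counts of called members below, which carry this limit.

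Challenge without treatment went with higher oxidase transcripts. At 48 h 5 of the 6 member probe sets rose in CNT glands against NC glands, both of CYBB and those of CYBA, NCF1 and NCF4, while 2.15% of all tested probe sets were called higher. At 24 h NCF1 and NCF4 rose, 2 of 6, beside 1.62% of all. With both time points in 1 fit, 6 of 6 rose, beside 3.54% of all. The CNT gland held the highest of the 4 levels in 5 of 5 cows for 5 member probe sets, an order that 9.92% of tested probe sets shared, and in 4 of 5 cows for NCF4.

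The membrane subunits came first. The brighter CYBB probe set read 10.77, 9.78 and 9.71 in the CNT glands of cow8452, cow8507 and cow8605 at 48 h, against 9.02, 8.38 and 8.78 in their NC glands. In the 24 h cows it read 9.09 and 10.24 in the CNT glands of cow8609 and cow8620, against 8.30 and 7.77 in their NC glands. The groups did not overlap at either time point, and at 24 h the CNT gland of cow8609 lay nearest to the NC glands. The dimmer CYBB probe set read 10.03, 9.35 and 9.38 in CNT glands at 48 h, against 8.58, 7.78 and 8.25 in NC glands of the same cows. Its values at 24 h were 8.55 and 10.04 in CNT glands, against 7.41 and 7.50 in NC glands. Both CYBB probe sets thus gave the same order of groups. Their log2 differences at 48 h were 1.35 (SE 0.31, limma adjusted p = 0.0365) and 1.39 (SE 0.24, limma adjusted p = 0.0122). At 24 h the differences were 1.63 and 1.84 and missed the threshold (limma adjusted p = 0.0766 and 0.0772).

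CYBA read 10.23, 9.77 and 9.93 in the CNT glands at 48 h, in the same order of cows, against 8.79, 8.38 and 8.62 in NC glands. CNT glands had 8.97 and 10.54 at 24 h, against 8.00 and 8.22 in NC glands. At 48 h the 3 CNT glands lay close together and well clear of the NC glands, whereas at 24 h the CNT glands of the 2 cows were far apart. The difference was 1.38 at 48 h (SE 0.18, limma adjusted p = 0.0040) and 1.65 at 24 h, where it missed the threshold (SE 0.46, limma adjusted p = 0.106). CYBA had the smallest standard error of the 6 at 48 h.

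**Figure D1:**
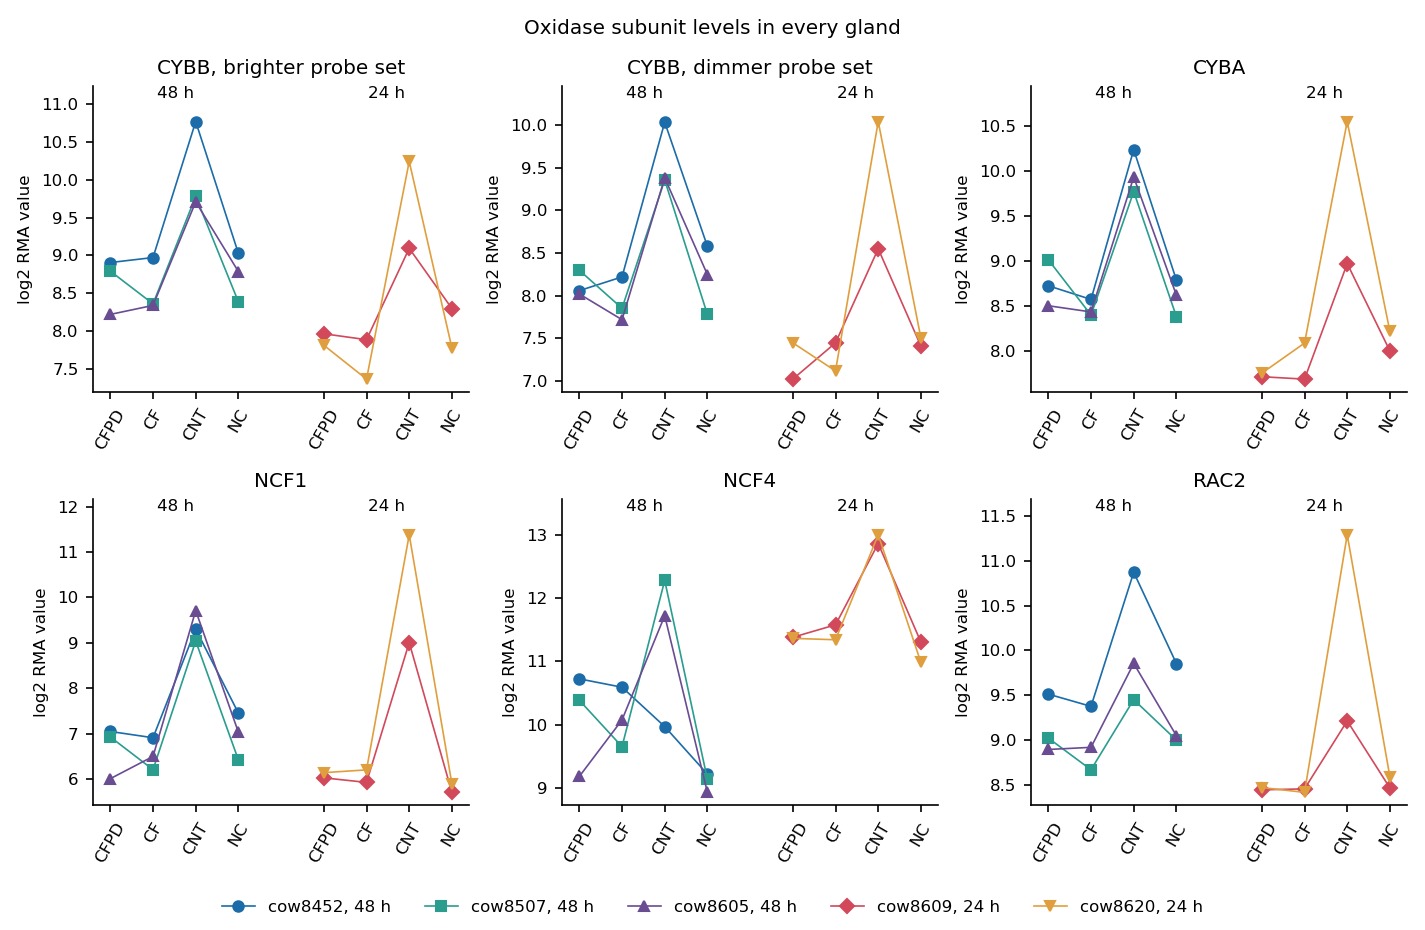
Log2 RMA values of the 6 member probe sets (vertical axes, each with its own scale) in the CFPD, CF, CNT and NC glands, 48 h cows to the left and 24 h cows to the right of each panel. Each point is 1 gland and each line joins the 4 glands of 1 cow. The CNT gland is the highest point of every line, with 1 exception, NCF4 in cow8452, where the CFPD and CF glands at 10.73 and 10.59 lie above the CNT gland at 9.97.

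Of the cytosolic subunits, NCF1 had the widest separation. It read 9.30, 9.04 and 9.71 in the CNT glands of cow8452, cow8507 and cow8605, against 7.45, 6.42 and 7.03 in NC glands. At 24 h NCF1 read 9.01 and 11.38 in the CNT glands of cow8609 and cow8620, against 5.71 and 5.90 in NC glands. The groups were apart at both time points, and the NC levels at 24 h lay below the array medians. The difference was 2.38 at 48 h, a 5.21-fold higher level (SE 0.33, limma adjusted p = 0.0048), and 4.39 at 24 h (SE 0.65, limma adjusted p = 0.0278). NCF1 entered both tests through the CNT glands, so neither adjusted p carries weight. No fold is given for 24 h, because the NC values there lie in the dim range in which signals are compressed. The fold at 48 h carries the same limit, since only the NC gland of cow8452 exceeded its array median there.

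NCF4 read 9.97, 12.28 and 11.72 in CNT glands at 48 h, against 9.22, 9.14 and 8.93 in NC glands. The 24 h cows had 12.86 and 13.00 in CNT glands, against 11.31 and 10.98 in NC glands. The groups did not overlap, but the CNT gland of cow8452 stood only 0.75 above its NC gland, where the other 2 cows of 48 h had differences of 3.14 and 2.79. NCF4 rose by 2.23 at 48 h (SE 0.54, limma adjusted p = 0.0428) and by 1.79 at 24 h (SE 0.18, limma adjusted p = 0.0116). The SE at 24 h was the smallest of the 6 and the SE at 48 h the largest.

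RAC2 read 10.87, 9.45 and 9.86 in CNT glands at 48 h, against 9.85, 9.001 and 9.05 in NC glands. Levels at 24 h were 9.21 and 11.29 in CNT glands, against 8.47 and 8.59 in NC glands. Every CNT gland exceeded the NC gland of its own cow, but at 48 h the groups overlapped, since the NC gland of cow8452 lay above the CNT gland of cow8507 and only just below that of cow8605. The difference of 0.76 at 48 h (SE 0.36, limma adjusted p = 0.225) and that of 1.72 at 24 h (SE 0.57, limma adjusted p = 0.154) missed the threshold. Over both time points RAC2 was called, with a difference of 1.24 (SE 0.34, limma adjusted p = 0.0272).

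The other differences over both time points were 1.49 and 1.61 for the CYBB probe sets, 1.51 for CYBA, 3.39 for NCF1 and 2.01 for NCF4 (limma adjusted p between 4.45e-05 and 0.0026). The members' median was 1.56, against a median of 0.06 over all 13873 probe sets tested. With the cow as a block, 5 of 6 were called higher at 24 h instead of 2, with limma adjusted p of 0.0345 and 0.0236 for CYBB and 0.0242 for CYBA and with RAC2 at 0.0583. Over all 13004 probe sets tested, calls in either direction rose with the block from 311 to 793, so the gain was not particular to the members. The counts of called members also turned on single animals. Without cow8605 or without cow8507 none of the 6 was called at 48 h, where limma adjusted p for NCF1 became 0.0889 and 0.0932. Over all probe sets the calls at 48 h fell from 346 to 0 without cow8605 and to 16 without cow8507, so the loss was not particular to the members. Without cow8620 none was called at 24 h and 3 of 6 over both time points, CYBA, NCF1 and the dimmer CYBB probe set. Without the CNT array of cow8609 all 6 were called at 24 h. At 24 h the calls over all probe sets also fell without cow8620 and rose without that CNT array, and each of these fits left a lone array in a group. All 6 differences kept their sign in each fit with a cow or array left out that is named here.

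Of the 5 cows, cow8620, sampled at 24 h, had the largest difference between CNT and NC glands for 5 of the 6 member probe sets. In this cow CNT exceeded NC by 5.48 for NCF1, 2.70 for RAC2, 2.47 and 2.54 for CYBB and 2.32 for CYBA. The corresponding values of cow8609, of the same time point, were 3.30 for NCF1, 0.75 for RAC2, 0.80 and 1.14 for CYBB and 0.97 for CYBA. For NCF4 the largest value, 3.14, came from cow8507 at 48 h. The mean log2 level of 5 pan-leukocyte markers was 11.23 in the CNT gland of cow8620 and 9.21 in that of cow8609, and the part of this gap in the members' values was not tested. None of the 6 differences between CNT and NC was called as different between 48 h and 24 h. NCF1 differed most, by -2.01 (95% interval -3.53 to -0.49, limma adjusted p = 0.518).

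Next, the treated glands were set against the untreated challenged gland. At 48 h, 4 of 6 member probe sets fell in CFPD glands and 4 of 6 in CF glands against CNT glands, those of CYBB, CYBA and NCF1 in each, beside 1.05% and 1.5% of all tested probe sets called lower. At 24 h NCF1 and NCF4 fell in CFPD glands, 2 of 6 beside 1.04% of all, and NCF1, NCF4 and the brighter CYBB probe set fell in CF glands, 3 of 6 beside 1.59% of all. In the mean of both treated glands, the same 4 probe sets of CYBB, CYBA and NCF1 fell at 48 h, beside 2.17% of all, and 5 of 6, without RAC2, fell at 24 h, beside 2.51% of all. Over both time points 6 of 6 fell in the mean of the treated glands, beside 3.36% of all. These comparisons share the CNT arrays with those of CNT against NC, so a high CNT gland entered both.

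For CYBB the brighter probe set read 8.90, 8.79 and 8.22 in CFPD glands and 8.97, 8.36 and 8.34 in CF glands of cow8452, cow8507 and cow8605. At 24 h it read 7.96 and 7.81 in CFPD glands and 7.88 and 7.36 in CF glands of cow8609 and cow8620. All 10 treated glands lay below the lowest CNT gland of the 2 time points. The dimmer probe set lay between 7.72 and 8.30 in treated glands at 48 h and between 7.02 and 7.45 at 24 h, likewise below every CNT gland. The mean of the treated glands differed from CNT by -1.70 for the brighter probe set (SE 0.23, limma adjusted p = 0.00019) and by -1.80 for the dimmer one (SE 0.21, limma adjusted p = 6.38e-05) over both time points.

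CYBA read 8.73, 9.01 and 8.51 in CFPD glands and 8.58, 8.40 and 8.44 in CF glands at 48 h. In cow8609 and cow8620 it read 7.72 and 7.76 in CFPD glands and 7.69 and 8.09 in CF glands. The CFPD gland of cow8507 was the highest of the 10 treated glands and lay marginally above the CNT gland of cow8609, of the other time point. Within each time point no treated gland reached a CNT gland. The difference over both time points was -1.65 (SE 0.20, limma adjusted p = 6.05e-05).

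NCF1 read 7.05, 6.93 and 6.01 in CFPD glands and 6.91, 6.21 and 6.50 in CF glands at 48 h. The 24 h values were 6.03 and 6.14 in CFPD glands and 5.93 and 6.21 in CF glands. All 10 treated glands lay below their array medians, and all 5 CNT glands above. NCF1 fell by 3.43 over both time points (SE 0.31, limma adjusted p = 7.45e-06), with a difference of -2.75 at 48 h and -4.11 at 24 h. It was called in each of the CFPD and CF comparisons with CNT at each time point. These calls carry no weight, because NCF1 passed the filter only through the CNT glands.

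NCF4 read 10.73, 10.39 and 9.18 in CFPD glands and 10.59, 9.65 and 10.08 in CF glands at 48 h. The treated glands of 24 h had 11.38 and 11.37 in CFPD glands and 11.58 and 11.34 in CF glands. At 24 h the treated glands lay more than a doubling below the CNT glands, and the mean of the treated glands differed from CNT by -1.51 (SE 0.15, limma adjusted p = 0.0074). At 48 h the groups overlapped through cow8452 alone, in which the mean of the treated glands differed from the CNT gland by 0.69, while it differed by -2.26 in cow8507 and by -2.09 in cow8605. The difference at 48 h was -1.22 (SE 0.47, limma adjusted p = 0.132). Without cow8452 it was -2.18 (limma adjusted p = 0.0277).

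RAC2 read 9.51, 9.02 and 8.90 in CFPD glands and 9.38, 8.67 and 8.92 in CF glands at 48 h. For 24 h the values were 8.45 and 8.47 in CFPD glands and 8.46 and 8.42 in CF glands. In each cow both treated glands lay below the CNT gland, but across cows the CFPD gland of cow8452 exceeded the CNT gland of cow8507. The mean of the treated glands differed from CNT by -0.99 at 48 h (limma adjusted p = 0.0838) and by -1.80 at 24 h (limma adjusted p = 0.0803), and neither was called. With the cow as a block RAC2 was called at 24 h (limma adjusted p = 0.0274), and over both time points it fell by 1.40 without the block (SE 0.30, limma adjusted p = 0.0051).

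With the cow as a block 5 of 6 member probe sets were called lower in CFPD glands and 5 of 6 in CF glands at 24 h. RAC2 missed in both (limma adjusted p = 0.0596 and 0.0501). Over all 13004 probe sets tested at 24 h, calls in either direction rose with the block from 182 to 646 in CFPD and from 278 to 768 in CF. The gain was thus not particular to the members. At 48 h the block added RAC2 in CF glands (limma adjusted p = 0.0058). With the labels of cow8609 exchanged, 2 of 6 were called in CFPD and 2 of 6 in CF glands at 24 h, NCF1 and NCF4 in each. Over all probe sets 285 and 243 were then called, instead of 182 and 278. The brighter CYBB probe set was then not called in CF glands (-2.004, limma adjusted p = 0.0587). With the labels of cow8452 exchanged, 4 of 6 were called in each at 48 h, beside 159 of all probe sets in CFPD and 226 in CF. Without cow8605 no member was called at 48 h in CFPD, in CF or in their mean. No probe set at all was then called lower or higher in CFPD or in CF, where 157 and 213 were called with all cows. Without cow8620, which left a lone array in each group of 24 h, fewer members were called in CFPD, in CF and in their mean. Fewer probe sets over the array were called in CFPD and in CF as well.

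**Figure D2:**
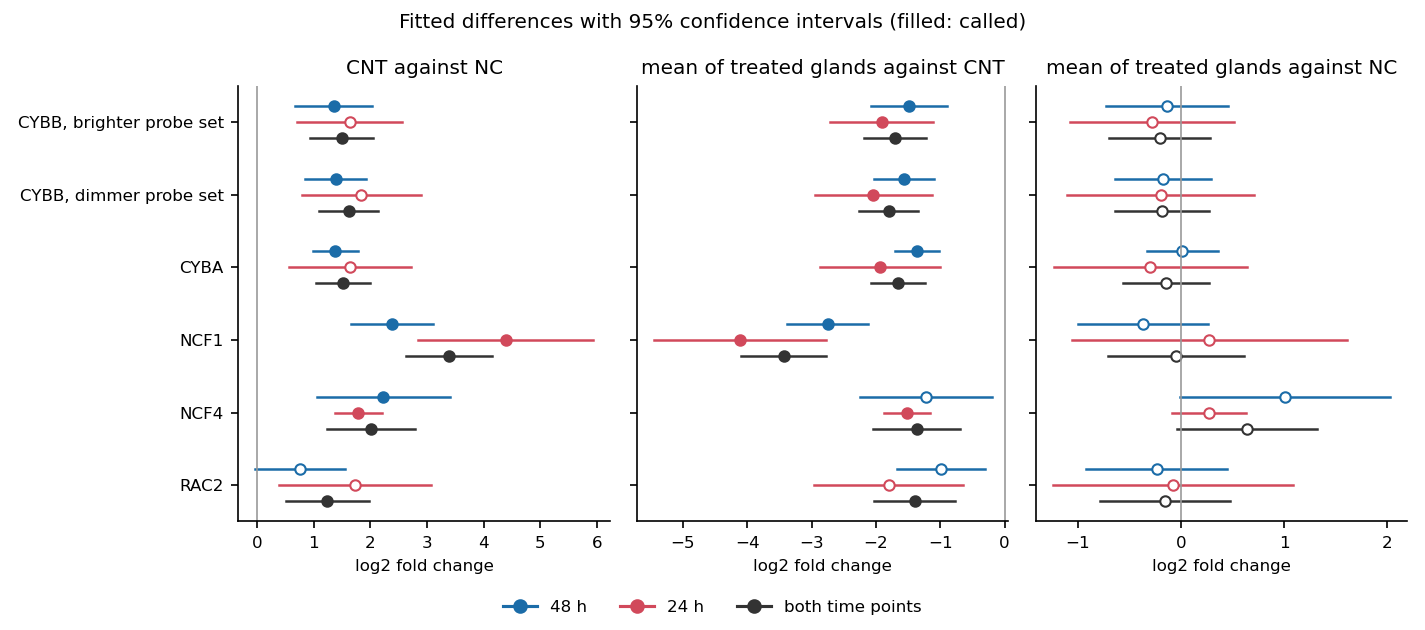
Fitted log2 differences of the 6 member probe sets (points) with 95% confidence intervals (lines) for CNT against NC, the mean of the treated glands against CNT, and the mean of the treated glands against NC, at 48 h (3 cows), at 24 h (2 cows) and over both time points. Filled points were called. In the third panel every interval includes 0, and NCF4 lies to the right of the other members at 1.01 at 48 h and 0.64 over both time points.

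Treated glands were then set against the gland that had not been challenged. No member was called in CFPD, in CF or in their mean against NC at either time point, nor was any of the 13000 probe sets tested at 48 h and the 13004 tested at 24 h, although 65 of the probe sets at 48 h and 231 at 24 h had an unadjusted limma p under 0.05 in the mean of the treated glands. Over both time points the difference of that mean from NC was -0.21 for the brighter and -0.19 for the dimmer CYBB probe set, -0.14 for CYBA, -0.05 for NCF1 and -0.16 for RAC2. The 95% intervals of these 5 lay between -0.79 and 0.61, so a doubling in either direction fell outside them. At 24 h alone the intervals of the same 5 reached from -1.24 to 1.61 and each of them included a halving, while at 48 h they lay between -0.997 and 0.46. For NCF4 the difference over both time points was 0.64 with an interval of -0.03 to 1.31, which includes a doubling (limma adjusted p = 0.999).

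The direction within cows separated NCF4 from the rest. The mean of the treated glands lay above the NC gland in 5 of 5 cows for NCF4, by 1.44, 0.88 and 0.70 in cow8452, cow8507 and cow8605 and by 0.18 and 0.37 in cow8609 and cow8620, an order shared by 2.99% of tested probe sets. Each of the 10 treated glands exceeded the NC gland of its cow in NCF4. The opposite order held for RAC2 in 5 of 5 cows, with differences of -0.41, -0.15 and -0.14 at 48 h and -0.02 and -0.14 at 24 h, and 3.65% of tested probe sets shared it. For both CYBB probe sets and CYBA the treated mean was below NC in 4 of 5 cows, with cow8507 as the exception, and for NCF1 in 2 of 5 cows, cow8452 and cow8605.

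Addition of prednisolone to cefapirin was compared as CFPD against CF. No member and no other probe set was called at 48 h, at 24 h or over both time points, with 21, 67 and 42 probe sets at an unadjusted limma p under 0.05. Over both time points the differences were 0.17 and 0.07 for CYBB, 0.06 for CYBA, 0.07 for NCF1, -0.05 for NCF4 and 0.09 for RAC2, with the widest interval, that of NCF4, between -0.83 and 0.73. With the labels of cow8609 and cow8452 exchanged the differences lay between -0.025 and 0.34, and none was called. The largest single gap between treated glands of 1 cow was that of NCF4 in cow8605, where CFPD minus CF was -0.89, and cow8507 had the opposite sign, 0.73.

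The members did not all vary alike. Likeness was measured as the root mean square difference of log2 values over the 20 arrays after the mean of each cow was taken off, so that a gene pair with the same pattern and size of change gives 0. CYBB and CYBA, the pair that forms the cytochrome, differed by 0.17, and each was the fourth nearest of 7027 genes to the other. RAC2 followed at 0.25 from CYBB and 0.23 from CYBA, the 29th nearest gene to CYBB and the 31st to CYBA. NCF1 stood 0.83 from CYBB and 0.83 from CYBA, at rank 5421 and 5752 among the genes ordered by distance from CYBB and from CYBA. Ordered by distance from NCF1, CYBB was at rank 82 and CYBA at rank 84, so the rank depended on the gene it was taken from. The differences of CNT from NC and of the treated mean from CNT had the same sign in NCF1 as in CYBB and CYBA and were larger in NCF1. NCF4 stood 0.69 from CYBB and 0.64 from CYBA, at rank 2600 and 2005 among the genes. Ordered by distance from NCF4, CYBB was at rank 471 and CYBA at rank 240.

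**Figure D3:**
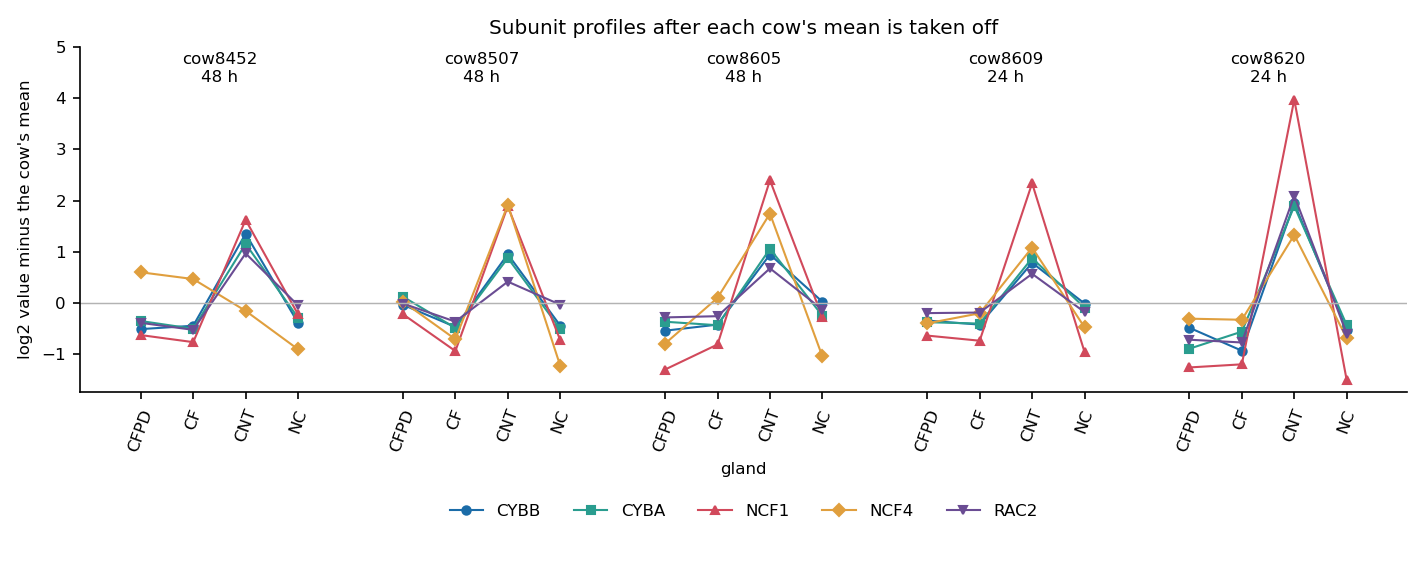
Log2 values of the 5 members (CYBB by its brighter probe set) minus the mean of the cow's 4 glands, in the CFPD, CF, CNT and NC glands of each cow. CYBB, CYBA and RAC2 run close together, NCF1 has the highest CNT point in cow8452, cow8605, cow8609 and cow8620, and NCF4 departs from the others in cow8452.

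The 5 genes nearest to each member were found among the genes with 1 symbol per probe set. Nearest to CYBB were GMFG, which acts on branched actin, APBB1IP (RIAM), which links Rap1 to integrin activation, HCLS1, an actin-binding protein of blood cells, CYBA and ANTXR2, an anthrax toxin receptor, at 0.14 to 0.17. CYBA shared APBB1IP and GMFG, followed by LAT2, an adaptor of immune receptors, CYBB and ITGB2, the beta chain of the leukocyte integrins, at 0.13 to 0.17. Nearest to RAC2 were RILPL2, SLAMF7, a receptor of immune cells, LAT2, WIPF1, a partner of the Wiskott-Aldrich protein, and ARHGAP45, at 0.15 to 0.19.

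NCF1 lay nearest to CD55, which protects cells from complement, SRGN, the granule proteoglycan of blood cells, LOC407171, IL1RN, the interleukin-1 receptor antagonist, and NFE2, at 0.27 to 0.39. NCF4 lay nearest to RNF121, LOC507615, PROS1, the anticoagulant protein S, TSPO of the outer mitochondrial membrane and QSOX1, which forms disulfide bonds in secreted proteins, at 0.30 to 0.34. The median distance of all genes was 0.73 for CYBB, 0.71 for CYBA, 1.47 for NCF1, 0.87 for NCF4 and 0.65 for RAC2. Since the arrays, groups and cows are the same for all genes, these distances describe the 20 arrays and carry no test. With Pearson's r as the measure, 1 to 3 of the 5 genes named for each member remained among its 5 nearest.

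A list of 31 further oxidase partners and regulators had 21 genes on the array, of which 18 passed the filter at 48 h and 19 at 24 h. At 48 h 3 of 18 rose in CNT against NC, beside 2.47% of the 6732 genes with 1 symbol tested at that time point, and none fell. S100A8 and S100A9, the calprotectin subunits that deliver arachidonic acid to the oxidase, rose by 4.24 and 2.61, and ITGB2, through which adherent neutrophils trigger the burst, rose by 1.48 (limma adjusted p = 0.0057, 0.0013 and 0.0111). At 24 h 2 of 19 rose, S100A8 by 4.73 and S100A9 by 3.19 (limma adjusted p = 0.0141 and 0.0220), beside 1.82% of 6720 genes. The median of the list was 0.33 at 48 h and 0.41 at 24 h, against 0.17 and 0.04 over all genes.

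Among partners above the array median in every gland, the difference between CNT and NC over both time points varied. RAC1, the GTPase that most other cells use, differed by 0.15, RAP1A, which copurifies with the cytochrome, by -0.12, CYBC1, a chaperone of the cytochrome, by 0.33, and MAPK14, a kinase that phosphorylates NCF1, by -0.11, none of them called. LYN, a Src-family kinase of blood cells, differed by 0.96, which missed the minimum difference (limma adjusted p = 0.0014), PTPN6, a phosphatase of blood cells, by 0.73 and PRKCD, a kinase that phosphorylates NCF1, by 0.70, also without a call. Against CNT, 4 of the 19 listed partners fell in the mean of the treated glands over both time points, beside 3.94% of 7028 genes. The differences were -4.13 for S100A8, -2.66 for S100A9, -1.86 for ITGB2 and -1.13 for ARHGDIB, an inhibitor of small GTPases (limma adjusted p between 2.78e-06 and 0.0027).

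Of the other NADPH oxidases, NOX4 and NOXA1 were on the array, and neither exceeded the array median in any gland. Among 6 enzymes that use or remove superoxide and peroxide, 4 passed the filter. SOD2, the mitochondrial superoxide dismutase, rose by 1.02 at 24 h (limma adjusted p = 0.0391) and was 1.58 higher at 48 h without a call (limma adjusted p = 0.0864). LPO, the milk peroxidase, differed by -1.70 at 48 h and -0.54 at 24 h, CAT by 0.51 and 0.15 and SOD1 by -0.62 and -0.79, with no call. MPO, the peroxidase of neutrophil granules, never exceeded the array median.

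Markers of leukocytes moved with the members. The mean log2 level of the 5 pan-leukocyte markers PTPRC, CORO1A, LCP1, LAPTM5 and CD53 ranged from 9.71 to 10.54 in CNT glands at 48 h, against 8.69 to 9.49 in NC glands, and from 9.21 to 11.23 in CNT glands at 24 h, against 8.12 to 8.69 in NC glands. The treated glands had 8.49 to 8.98 in CFPD and 8.05 to 9.09 in CF at 48 h, and 7.91 to 8.33 in CFPD and 7.81 to 8.02 in CF at 24 h. The groups did not overlap at either time point between CNT and the rest. Of these 5 markers, 1 rose in CNT against NC at 48 h, LAPTM5, and 0 at 24 h, and CD53, CORO1A and LAPTM5 rose over both time points. The part of cell number in the members' differences was not tested.

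Of 10 neutrophil markers on the array 3 passed the filter. S100A12 and ALOX5AP rose at 48 h, by 4.50 and 1.82 (limma adjusted p = 0.0050 and 0.0040), and S100A12 rose by 4.96 at 24 h (limma adjusted p = 0.0301). CXCR1, a receptor for interleukin-8, exceeded the array median in all 5 CNT glands and in no other gland, so it passed the filter through the group in which it was high and is given by its levels alone. These averaged 9.47 in CNT glands at 48 h, against 5.70 in NC glands, and 11.14 in CNT glands at 24 h, against 5.29 in NC glands. The mean of the 10 ranged from 6.45 to 6.96 in CNT glands at 48 h, against 5.49 to 5.93 in NC glands, and from 6.49 to 7.53 in CNT glands at 24 h, against 5.46 to 5.49 in NC glands. Most of this gap came from CXCR1, S100A12 and ALOX5AP. MMP9 averaged 6.45 in CNT and 6.26 in NC glands at 48 h, and 7.57 and 5.98 at 24 h. PGLYRP1 averaged 7.14 and 6.70 at 48 h, and 5.89 and 6.04 at 24 h. ELANE and the cathelicidins CATHL1 to CATHL4, products of granule formation, exceeded the array median in no gland.

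Among 9 monocyte and macrophage markers 3 were called higher at 48 h, CD68, CSF1R and VSIG4, by 2.86, 1.19 and 1.77, beside 2.47% of genes, and 0 of 8 tested at 24 h. VSIG4 exceeded the array median on 4 arrays, those of the CNT glands at 48 h and of the CFPD gland of cow8507. It passed the filter only through the group in which it was high, so its call carries no weight. Others on the list did not share the rise at 48 h, since the scavenger receptor MSR1 differed by -1.51 (limma adjusted p = 0.0539) and CD14, a receptor for lipopolysaccharide, by 0.10 (limma adjusted p = 0.899). The mean of the 9 ranged from 9.59 to 10.08 in CNT glands at 48 h, against 8.42 to 9.13 in NC glands, and from 8.77 to 9.48 in CNT glands at 24 h, against 8.15 to 8.45 in NC glands. Of the markers of B cells, T and NK cells, mammary epithelium and endothelium, 0 of 17 tested at 48 h and 0 of 15 at 24 h were called in CNT against NC, a count near that background, since 2.47% and 1.82% of genes were called higher and 0.446% and 0.670% lower. The epithelium list ranged from 12.33 to 12.72 in CNT glands at 48 h, against 12.19 to 12.50 in NC glands, and from 12.10 to 12.39 in CNT glands at 24 h, against 12.26 to 12.34 in NC glands.

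**Figure D4:**
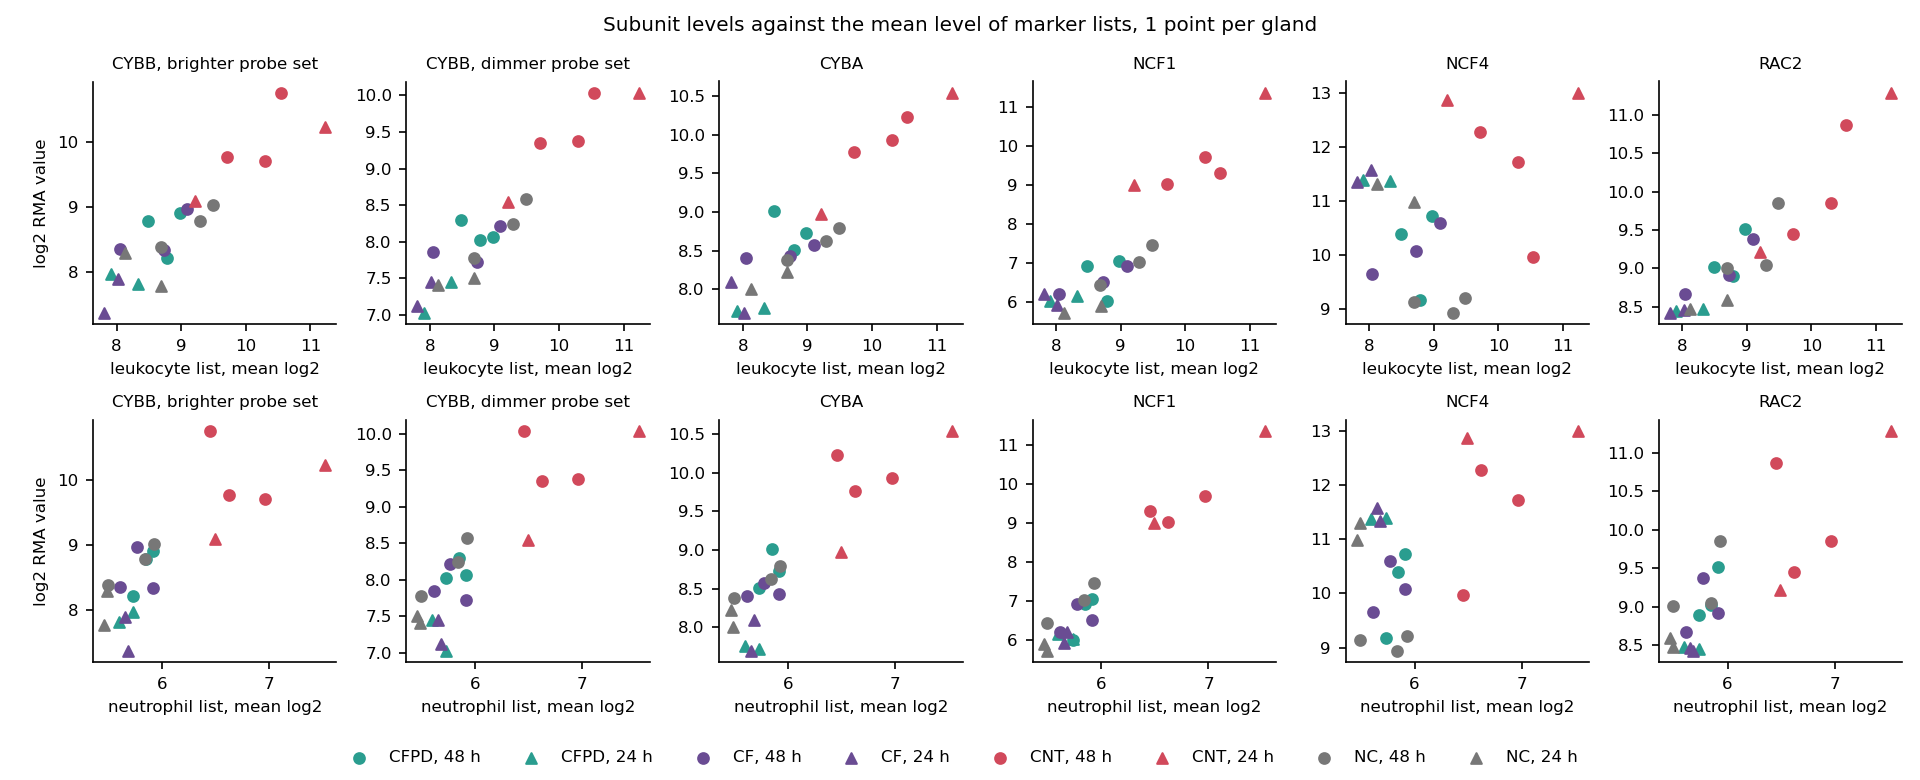
Log2 RMA value of each member probe set (vertical axes) against the mean log2 level of 5 pan-leukocyte markers (top row) and of 10 neutrophil markers (bottom row), with 1 point per gland, circles for 48 h and triangles for 24 h. Differences of the neutrophil mean between CNT and NC glands came mostly from CXCR1, S100A12 and ALOX5AP. At each time point the CNT glands have the highest leukocyte list and the highest CYBB and CYBA levels, and NCF4 departs from this, with the CNT gland of cow8452 at 10.54 on the leukocyte list and 9.97 in NCF4.

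Among glands of 1 group the members followed the leukocyte list in some cases and not in others. At 48 h cow8452 had the highest leukocyte list of the CNT glands, 10.54, and the highest level of both CYBB probe sets, of CYBA and of RAC2 there. The other CNT glands at 48 h had the opposite order in the brighter CYBB probe set, with 9.71 in cow8605 at a list level of 10.30 and 9.78 in cow8507 at 9.71. NCF4 also had the opposite order there, with 11.72 in cow8605 and 12.28 in cow8507. The dimmer CYBB probe set (9.38 and 9.35), CYBA (9.93 and 9.77), NCF1 (9.71 and 9.04) and RAC2 (9.86 and 9.45) followed the list in these glands. In CFPD glands at 48 h cow8507 had the lowest leukocyte list, 8.49, and the highest CYBA level, 9.01. In NC glands at 24 h the brighter CYBB probe set read 8.30 in cow8609 and 7.77 in cow8620, with list levels of 8.12 and 8.69. NCF4 likewise ran against the list in these glands, at 11.31 and 10.98. The dimmer CYBB probe set (7.41 and 7.50), CYBA (8.00 and 8.22), NCF1 (5.71 and 5.90) and RAC2 (8.47 and 8.59) followed it. NCF4 went the other way from CYBB and CYBA in the CNT gland of cow8452, 9.97 against 12.28 in the CNT gland of cow8507, whose leukocyte list was the lowest of the 3 at 9.71. At 24 h cow8609 had the lowest list of all CNT glands, 9.21, and an NCF4 level of 12.86, the second highest of the 20 arrays.

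NCF4 also differed between the cows of the 2 time points in glands that had not been challenged. It read 9.22, 9.14 and 8.93 in NC glands at 48 h, against 11.31 and 10.98 in NC glands at 24 h, and the groups were far apart. The difference of -2.05 (SE 0.52, limma adjusted p = 0.0381) was called, as were 1.48% of all probe sets in that direction, in a comparison chosen after these values were seen. None of the other members was called, and their differences were positive, from 0.49 for CYBA to 1.17 for NCF1. The 2 time points came from different cows, so time and animal cannot be told apart. A fixed cow term cannot estimate this difference, because no cow was sampled at both time points. The call was lost without the filter (limma adjusted p = 0.0511). It was also lost without cow8605, cow8507, cow8620 or cow8609 in turn, where leaving out cow8620 or cow8609 left a lone NC array at 24 h.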

How the data were processed

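RNA of 20 mammary glands (4 from each of 5 cows) was hybridised to the Affymetrix Bovine Genome Array. The authors computed RMA signals in affy (versions not given in the sources used here) and deposited them on the log2 scale. Background correction, quantile scaling and summarization thus preceded deposit, and values at the dim end are compressed. Groups, cows and time points came from the sample labels. The tissue label names the cisternal region, and the study's methods name the mid parenchyma. Gene symbols came from the platform annotation, in which 13318 probe sets have 1 symbol, 86 have more than 1 and 10724 lack one.

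The 112 control probe sets were left out, and a probe set was kept where it exceeded the array median on at least 2 arrays at 24 h, 3 arrays at 48 h or 2 of 20 arrays in the fit of both time points, which left 13004, 13000 and 13873. Each time point had its own fit of 4 groups, without the cow, in limma 3.58.1 (R 4.3.3) with lmFit and eBayes, and p-values were adjusted over all probe sets kept by the Benjamini-Hochberg method. Called means adjusted p under 0.05 and a log2 difference of at least 1 in size. Comparisons over both time points average the differences of 24 h and 48 h in 1 fit of 8 groups. Cow numbers pair the glands because these came from the same animal. Deviations from the group means of glands of 1 cow correlated at 0.52 on average at 24 h and 0.45 at 48 h. Fits with a fixed or a random cow term (block), other filters, scalings and priors, all arrays in 1 fit, exchanged labels and each array or cow left out were run as alternatives. The script was tested on simulated data. Named genes are all member probe sets, the 5 genes nearest to each member, and up to 4 called genes of each list with the largest change, and values of uncalled genes from the lists were added as examples after they were seen. For likeness and lists, the probe set with the highest mean stood for a gene. Members and lists were chosen with earlier results of these data known. The number of arrays limits the precision.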

Additional observations from a re-analysis of the deposited data

Results flagged for a closer look

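NCF1 was marked because its difference between CF and NC glands had opposite signs at the 2 time points. CF minus NC was negative in all 3 cows of 48 h, with a mean of -0.43 and single values between -0.54 and -0.21, and positive in both cows of 24 h, with a mean of 0.26 and values of 0.22 and 0.31. The means differed by -0.69 between 48 h and 24 h, and the interaction was not called (SE 0.71, limma adjusted p = 0.99996). The CFPD glands did not share the pattern, since cow8507 had CFPD above NC. NCF1 was below the array median in all of these CF glands. With 2 or 3 arrays a group, no group was large enough to be searched for outlying samples.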

How the results depend on the processing

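Of 600 fits of single member probe sets under settings other than left-out arrays, 551 kept direction and call, 16 lost the call, 30 gained it and 3 changed sign, all 3 in CFPD against CF over both time points with the labels of cow8609 and cow8452 exchanged, chosen after seeing the data (CYBA -0.0017, NCF1 -0.025, NCF4 0.0059). These fits leave out the comparisons of CFPD with CF and of treated glands with NC within a time point, in which no member was called under any alternative. In CFPD against CF within a time point, exchanging the labels of 1 cow changed the sign of 13 of 30 values, which lay between -0.50 and 0.59, and leaving out an array or cow changed 24 of 90. Of 510 with an array or cow left out, 367 were unchanged, 113 lost the call, 23 gained it and 7 changed sign. In CFPD against CF over both time points the values with a cow left out ranged from -0.11 (cow8620) to 0.26 for the dimmer CYBB probe set, from -0.028 (cow8609; -0.022 without cow8507) to 0.15 for CYBA, from -0.078 (cow8507) to 0.22 for NCF1, and from -0.23 to 0.17 (cow8605; 0.0062 without cow8609) for NCF4. NCF1 in the treated mean against NC ranged from -0.18 to 0.056 (cow8605).

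The number of member probe sets called changed by over 1.5 times as follows, and the cause was not tested. At 24 h, with the replicate block of cow it was 5 for CNT against NC, 5 for CF and 5 for CFPD against CNT, with a random replicate block 5, 6 and 5, and with all 20 arrays in 1 fit 4 for CNT against NC and 4 for CFPD against CNT. All probe sets called rose as well, to 793, 768 and 646 with the block and to 747, 719 and 598 with the random block. With all 20 arrays in 1 fit they were 349 for CNT against NC and 248 for CFPD against CNT. Quantile normalization gave 3 instead of 5 for CNT against NC at 48 h, where the brighter CYBB probe set and NCF4 missed the threshold (limma adjusted p = 0.0602 and 0.0635), and at this time point the median difference of all probe sets was 0.13. NCF4 at 24 h was not called with all 20 arrays in 1 fit (limma adjusted p = 0.112 for CNT against NC). The brighter CYBB probe set in CF against CNT at 24 h was also not called without the filter or with median centring (limma adjusted p = 0.0540 and 0.0512). In comparisons between gland groups of the same cows, the block changed no other call than these and those given in the report.

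With 1 array or cow left out, members called ranged from 0 to 4 (48 h) and 0 to 6 (24 h) for CNT against NC, 0 to 3 and 0 to 6 for CFPD against CNT, 0 to 4 and 0 to 6 for CF against CNT, and 0 to 5 and 1 to 6 for the treated mean against CNT. Over both time points they ranged from 3 to 6 for CNT against NC and 4 to 6 for the treated mean against CNT. Where a cow of 24 h was left out, the lone array of a group was assumed to vary like the other groups. The calls over all probe sets moved too. For CNT against NC at 48 h they ranged from 0 without cow8605 to 324 without the CNT array of cow8507. With the cow as a block, all probe sets called were 793 instead of 311 at 24 h and 672 instead of 346 at 48 h for CNT against NC, 646 instead of 182 and 399 instead of 157 for CFPD against CNT, and 768 instead of 278 and 517 instead of 213 for CF against CNT.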
